A study of Homo sapiens with 2 samples.

Results

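SH-SY5Y is a human neuroblastoma cell line with noradrenergic features, and the cells described here were selected on their share of mitochondrial RNA: 15% to under 30% of their gene UMIs lay on the 13 MT- genes that code for proteins. They are called mid-mitochondrial cells below. A UMI is a molecular tag that counts 1 captured RNA molecule. Of 2879 cells in the count table, 267 were mid-mitochondrial cells, 139 in the flask SplitA and 128 in the flask SplitB. All cells were untreated SH-SY5Y, grown in DMEM with fetal bovine serum, split into 2 flasks, tagged with 1 hashtag antibody per flask and pooled into 1 single-cell library. A cell was assigned to a flask when 1 hashtag count was at least 3 times the other and the other was low, which left out 95 multiplets. They were compared with low-mitochondrial cells, which had a mitochondrial share under 15% and at least 1000 genes, 829 in SplitA and 1091 in SplitB. Both groups of cells carried the same genotype and treatment and came from the same flasks, so the contrast is one between cells and not between conditions.

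The share of mitochondrial RNA is a common quality measure in single-cell sequencing. The mitochondrial genome encodes subunits of the respiratory chain and the ATP synthase, and its transcripts stay inside the organelle. Most other mRNA lies in the cytosol, where it is free, bound to ribosomes, or, for secreted and membrane proteins, bound to the endoplasmic reticulum, while a few long noncoding RNAs remain in the nucleus. The table holds the RNA that was captured, so RNA lost from a cell and RNA that the cell had not made cannot be told apart.

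Mid-mitochondrial cells were 11.8% of the 1179 assigned cells of SplitA (exact Clopper-Pearson 95% interval of 10.0% to 13.8%) and 7.98% of the 1605 cells of SplitB (6.70% to 9.41%). These intervals cover counting error only, and with 1 flask against 1 flask the difference in share was not tested. With 9 of the 13 genes and the same limits, SplitA had 83 such cells and SplitB 199. The 9 genes leave out MT-CO1, MT-CO2, MT-CO3 and MT-CYB, so the same limits then select cells of a higher share by all 13 genes. The order of the flasks thus differed in another band of cells. Cells of 30% or more were more frequent than mid-mitochondrial cells, with 193 in SplitA and 347 in SplitB. A further 18 and 39 cells were under 15% but had fewer than 1000 genes. No barcode occurred more than 1 time in the table.

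The mitochondrial share and the total of nuclear UMIs were used in choosing the cells, and their values are given as a description. A mid-mitochondrial cell held a median of 1330 nuclear UMIs in SplitA and 1516 in SplitB, against 5816 and 6036 in low-mitochondrial cells. This was 22.9% and 25.1% of the level in the low-mitochondrial cells of the same flask. The mitochondrial UMIs hardly differed, with a median of 473 and 519 per cell against 528 and 557. The hashtag of the own flask, a tag on the cell surface, was counted 863 and 948.5 times per mid-mitochondrial cell and 1073 and 1058 times per low-mitochondrial cell.

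**Figure D1:**
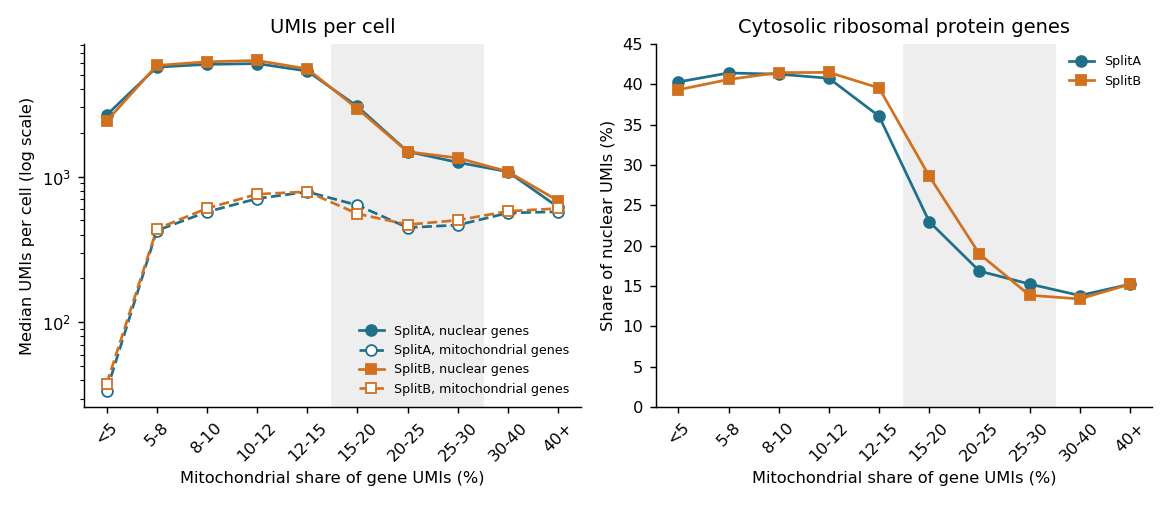
Cells of each flask were placed in 10 classes of mitochondrial share (x axis, percent of gene UMIs), with mid-mitochondrial cells in the grey band; the left panel gives the median nuclear (solid) and mitochondrial (dashed) UMIs per cell on a log scale and the right panel the percent of nuclear UMIs on ribosomal protein genes. Between 12% to 15% and 25% to 30% the median of nuclear UMIs fell from 5288 to 1251 in SplitA and from 5473.5 to 1341 in SplitB, and the ribosomal share from 36.1% to 15.3% and from 39.6% to 13.9%.

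Among the 13 mitochondrial genes, which the rule used, the order of the levels was similar in both groups of cells. MT-CO3, a subunit of cytochrome c oxidase, was at 94.0 and 102.4 UMIs per mid-mitochondrial cell in SplitA and SplitB, and at 102.4 and 107.2 per low-mitochondrial cell. MT-ND3, a subunit of complex I, was at 28.9 and 30.3 UMIs per cell against 24.6 and 25.5, and MT-ND1 of the same complex at 27.1 and 28.8 against 38.1 and 38.8.

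To describe the nuclear transcriptome, UMIs of the nuclear genes were summed for each flask and group of cells and scaled to CPM of the nuclear UMI total (nuclear CPM). The sums rested on 218684 and 243861 nuclear UMIs in mid-mitochondrial cells of SplitA and SplitB, and on 5152809 and 7052218 in low-mitochondrial cells. Each ratio was tested with the quasi-likelihood test of edgeR, with the flask as a block. A gene was called when the Benjamini-Hochberg adjusted p was under 0.05, the ratio was at least 1.5-fold and its direction was the same in both flasks. Of 8394 genes tested, 2949 were higher (35.1%) and 473 were lower (5.63%) in mid-mitochondrial cells, with a median log2 ratio of 0.64 over all genes tested. The p-values measure only the spread between 2 flasks of 1 library.

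This split depended on the scale. The 79 cytosolic ribosomal protein genes made up 41.1% of the nuclear UMIs of low-mitochondrial cells in either flask, and 17.6% and 21.2% of those of mid-mitochondrial cells, so that the shares of other genes rose as theirs fell. With TMM factors, which set the bulk of genes to no change, every ratio was lower by about 0.62 on the log2 scale, and 1223 genes were higher (14.6%) and 1426 lower (17%). All 1223 were among the 2949, and all 473 genes lower by nuclear CPM were among the 1426. Below, a call is by nuclear CPM, and the call with TMM factors is given beside it where it differed. Counted as UMIs per cell, the median gene stood at 0.398 times its low-mitochondrial level in SplitA and 0.444 times in SplitB, and 370 of the 8394 genes (4.41%) had more UMIs per mid-mitochondrial cell than per low-mitochondrial cell in both flasks.

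The ratios of the 2 flasks had the same sign for 6601 of the 8394 genes (78.6%). Across genes, which are not independent replicates, Pearson's r between the flasks was 0.61.

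**Figure D2:**
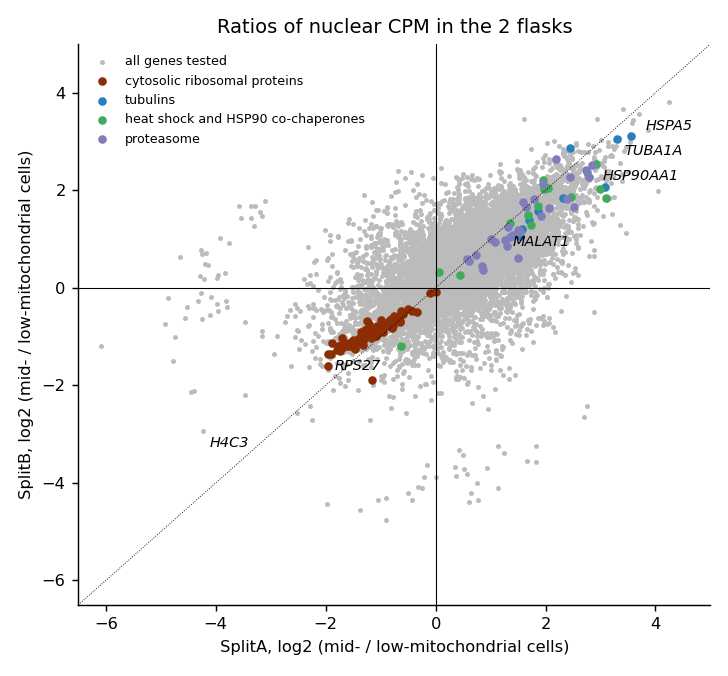
Each point is 1 of the 8394 genes tested, with the log2 ratio of nuclear CPM of mid- to low-mitochondrial cells in SplitA (x axis) and in SplitB (y axis), computed with 1 CPM added; the dotted line marks equal ratios, and 4 gene lists are coloured. Ribosomal protein genes lie at the lower left and tubulins, with medians of 2.31 in SplitA and 1.84 in SplitB, at the upper right.

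TUBA1A, HSP90AA1 and MALAT1 marked the mid-mitochondrial cells in earlier results of these data, so their p-values are not independent evidence. Their levels are given here in both flasks. TUBA1A (ENSG00000167552, chr12:49184686-49189080 in GRCh38) encodes an alpha-tubulin of neurons. It was at 5231 nuclear CPM in mid-mitochondrial cells of SplitA and 4273 in SplitB, and at 530 and 515 in low-mitochondrial cells. The exact Poisson 95% interval, which covers counting error only, ran from 4933 to 5543 CPM for the first of these sums and from 4017 to 4540 for the second. Both flasks thus showed a difference far beyond that between flasks, with a log2 ratio of 3.18 (SE 0.19, edgeR adjusted p = 5.0e-21). TUBA1A was also among the few genes with more UMIs per cell, at 8.23 and 8.14 per mid-mitochondrial cell against 3.30 and 3.33. Alpha-tubulin genes are near-identical in their coding part, and reads of TUBA1A and TUBA1B could be split differently by another counting method.

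HSP90AA1 (ENSG00000080824, chr14:102080742-102139699), the stress-inducible cytosolic HSP90 chaperone, was at 5071 and 3965 nuclear CPM in mid-mitochondrial cells against 672 and 684 in low-mitochondrial cells. Its log2 ratio was 2.73 (SE 0.18, edgeR adjusted p = 1.4e-18), with 7.98 and 7.55 UMIs per cell against 4.17 and 4.42. MALAT1 (ENSG00000251562, chr11:65497640-65508073), a long noncoding RNA retained in the nucleus, was the most abundant nuclear transcript of mid-mitochondrial cells, at 36244 and 33322 nuclear CPM against 15098 and 14564. Its log2 ratio was 1.23 (SE 0.25, edgeR adjusted p = 4.8e-05), but 0.61 with TMM factors, where the adjusted p of 0.074 missed the threshold. Per cell MALAT1 was lower, at 57.0 and 63.5 UMIs against 93.8 and 94.1, though it stood at a larger part of its low-mitochondrial level than the median gene.

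When each cell was thinned to 1000 nuclear UMIs, 98.1% of mid-mitochondrial cells of SplitA (93.2% to 99.8%) and 95 of 100 of SplitB (88.7% to 98.4%) had a TUBA1A UMI, against 35.8% and 39.0% of low-mitochondrial cells. Thinning left out 35 and 28 mid-mitochondrial cells that were shallower. Without thinning, the shares were 97.8% and 96.9% against 89.5% and 89.2%, at median depths that differed by about the ratio given above. For HSP90AA1 the thinned shares were 95.2% (SplitA) and 95 of 100 cells (SplitB) against 42.3% and 47.8%. No cell type of this line lacks these genes, so the share that free RNA alone would give was not measured. MALAT1 had a UMI in at least 98.0% of the thinned cells of each group and flask. At this equal depth a mid-mitochondrial cell also showed more different genes, with 693 ± 37.1 (SD over 104 cells) and 686 ± 51.1 (100 cells) against 540 ± 45.7 (829 cells) and 541 ± 48.7 (1091 cells).

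**Figure D3:**
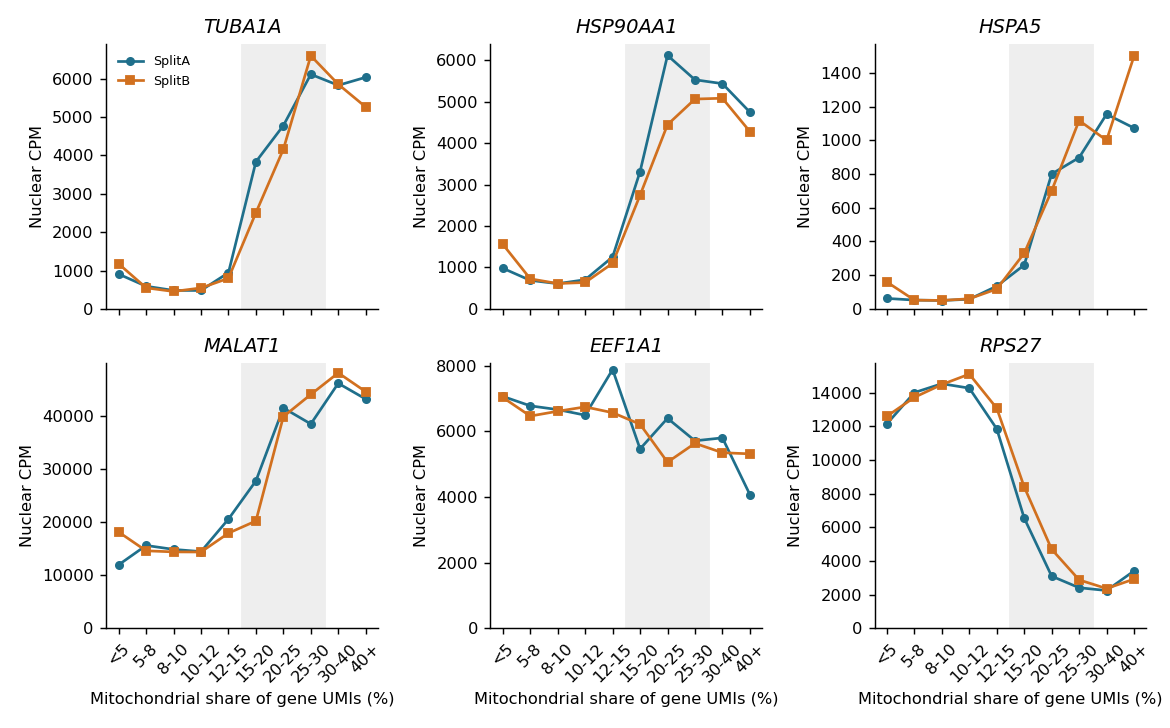
Nuclear CPM (y axis, from 0) of 6 genes in the same 10 classes of mitochondrial share (x axis), each flask apart, with mid-mitochondrial cells in the grey band. TUBA1A and HSPA5 climbed from class to class within the band, HSP90AA1 and MALAT1 were higher at its end than at its start but fell between its last pair of classes in SplitA, EEF1A1 stayed between 4076 and 7887 CPM in all classes, and RPS27 fell from 13072 CPM or less at 12% to 15% to 2871 CPM or less at 25% to 30%.

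The change ran through the band and did not start at its lower limit. TUBA1A was at 943 and 797 nuclear CPM in the 17 and 48 cells of 12% to 15%, at 3835 and 2507 in the 18 and 28 cells of 15% to 20%, at 4779 and 4161 in the 30 and 41 cells of 20% to 25%, and at 6114 and 6598 in the 91 and 59 cells of 25% to 30%. The cells of 30% to 40% did not go further, at 5829 and 5855. MALAT1, at 46081 and 48044 CPM, and HSP90AA1, at 5438 and 5085 CPM, were also high in those cells. Cells just inside the lower limit (15% to 17%, 10 and 9 cells) had a TUBA1A level of 3523 and 2383 CPM and a ribosomal share of 24.3% and 31.1%, and those just outside (13% to 15%, 9 and 18 cells) had 1514 and 1223 CPM and 32.2% and 34.3%. At the upper limit, cells of 28% to 30% (45 and 27 cells) had 6308 and 5433 CPM and cells of 30% to 32% (31 and 36 cells) 6012 and 6043 CPM. Over the 20 classes of both flasks, the genes whose log2 level followed that of TUBA1A most closely were HSP90AA1 (Pearson's r of 0.991), HSP90AB1 (0.991), the chaperonin subunit CCT5 (0.990), and the kinases PGK1 (0.989) and CKB (0.989). The classes share the library and their depth falls along the axis, so these values are a description.

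A narrower class of depth gave the same direction for TUBA1A and RPS27. At 2000 to under 4000 nuclear UMIs both groups had cells, 23 and 23 mid-mitochondrial against 119 and 142 low-mitochondrial ones, though their median depths of 2602 and 2427 against 3494 and 3549 nuclear UMIs still differed. There RPS27 was at 4637 and 4163 nuclear CPM against 13111 and 12589, and TUBA1A was at 4130 and 4567 nuclear CPM against 671 and 641. Within this class 450 genes were higher and 140 lower by the same test, and TUBA1A (log2 ratio of 2.73, adjusted p = 6.9e-07) and RPS27 (−1.55, adjusted p = 5.9e-06) kept their direction. The 14 mid-mitochondrial cells of SplitB with 4000 or more nuclear UMIs stood between the groups, with a ribosomal share of 31.7% and 1911 CPM of TUBA1A. SplitA had 4 such cells.

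The most complete fall among the lists was that of the cytosolic ribosomal proteins, which form the large and the small subunit of the ribosome. Of 79 genes tested, 72 were lower and 0 higher, and with TMM factors 79 were lower, beside 5.63% and 17% lower of all genes. The median log2 ratio of the list was −1.24 in SplitA and −0.94 in SplitB, and the median gene of the list stood at 0.107 and 0.153 times its UMIs per low-mitochondrial cell. RPS27, the most abundant of them in low-mitochondrial cells, was at 3640 and 5589 nuclear CPM in mid-mitochondrial cells against 14220 and 14264, a log2 ratio of −1.65 (SE 0.22, edgeR adjusted p = 1.3e-08). RPS12 (1079 and 1419 against 4222 and 4327 CPM), RPS29 (1358 and 2005 against 5079 and 5165 CPM) and RPL39 (2328 and 3399 against 8078 and 8240 CPM) also fell, with log2 ratios of −1.78, −1.63 and −1.53. In the single cell, the median ribosomal share was 15.5% and 15.7% against 40.6% and 40.4%, and 0 of 139 and 2 of 128 mid-mitochondrial cells lay above the median of the low-mitochondrial cells. Ribosomal protein genes have many processed pseudogenes, to which their reads can be ascribed in part. Even so, RPS18, RPL41, RPLP1, RPS2, RPS27 and RPL10 were still among the 10 most abundant nuclear genes of mid-mitochondrial cells.

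Of 19 translation and nascent chain factors tested, 2 were higher and 3 lower by nuclear CPM, beside 35.1% and 5.63% of all genes, and 1 was higher and 14 lower with TMM factors, beside 14.6% and 17%. Per cell their median ratio was 0.223 in SplitA and 0.255 in SplitB, under that of all genes. EEF1A1, the elongation factor that brings aminoacyl-tRNA to the ribosome, was at 5794 and 5704 nuclear CPM against 6694 and 6598 (log2 ratio of −0.21, SE 0.20, edgeR adjusted p = 0.40), but was lower with TMM factors (−0.83). The RNA helicase EIF4A1 rose 6.44-fold and 4.32-fold, from 215 and 212 to 1386 and 914 CPM. TPT1, NACA and EEF1B2 fell, TPT1 from 2906 and 2933 to 864 and 1423 CPM.

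The genes of the 15 largest falls had coding sequences of 168 to 660 nucleotides. H4C3 (ENSG00000197061, chr6:26103933-26104337), a replication-dependent histone H4 gene whose mRNA normally lacks a poly(A) tail, had the largest fall of the genes with an average of at least 50 CPM. It was at 142 and 357 nuclear CPM against 2695 and 2736, a log2 ratio of −3.46 (SE 0.23, edgeR adjusted p = 5.0e-19), and at 0.223 and 0.680 UMIs per cell against 16.8 and 17.7. Among cells of 2000 to under 4000 nuclear UMIs the fall was smaller, from 883 and 600 to 190 and 369 CPM (log2 ratio of −1.43, edgeR adjusted p = 0.015). CNIH2, which aids the export of glutamate receptors from the endoplasmic reticulum, fell from 162 and 173 to 13.7 and 36.9 CPM. The phosphatase inhibitor PPP1R14B fell from 922 and 961 to 219 and 316 CPM, and the metallothionein MT1X from 61.5 and 114 to 9.15 and 36.9 CPM. The other genes of the 15 largest falls were C12orf75, CTXN1, RPS12, BCL7C, TAF10, CSAG1, FKBP1B, RFLNB, RPS27, DGCR6L and RPS29, with log2 ratios from −1.85 to −1.63. Among cells of 2000 to under 4000 nuclear UMIs, MT1X was not called (log2 ratio of −1.10, edgeR adjusted p = 0.39). Nor were C12orf75, CTXN1, TAF10, FKBP1B, RFLNB and DGCR6L (edgeR adjusted p of 0.051 to 0.38). The rest of the 15 had an adjusted p under 0.05 there. Each of the 15 falls was larger in SplitA than in SplitB. Apart from H4C3, PPP1R14B and the ribosomal protein genes, each of the 15 falls rests on at most 16 UMIs per flask in mid-mitochondrial cells, such as 3 and 9 for CNIH2, 2 and 9 for MT1X and 2 and 11 for CSAG1.

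The ferritin chains, which store iron, fell from 3845 and 3737 to 1541 and 2169 nuclear CPM (FTH1, named after its values were seen) and from 2682 and 2645 to 942 and 1124 CPM (FTL). The actin-sequestering thymosins fell from 1144 and 1203 to 320 and 586 CPM (TMSB4X) and from 4563 and 4608 to 1957 and 2834 CPM (TMSB10). ACTB, the actin they bind, moved the other way, from 1051 and 1061 to 5186 and 3756 CPM (log2 ratio of 2.06, SE 0.18). Of 16 antioxidant and ferritin genes tested, 8 were higher and 6 lower (2 and 8 with TMM factors), and of 17 actin and thymosin genes 4 were higher and 2 lower (1 and 4), the medians of both lists turning negative with TMM factors. Of all genes 35.1% were higher and 5.63% lower (14.6% and 17%). The peroxiredoxins PRDX1 and PRDX4 rose to 613 and 472 CPM and to 252 and 164 CPM, from 165 and 164 and from 60.5 and 59.0.

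Of 55 nuclear genes of the respiratory chain and ATP synthase tested, 11 were higher and 11 lower (7 and 30 with TMM factors), beside 35.1% higher and 5.63% lower of all genes (14.6% and 17% with TMM factors). The catalytic ATP synthase subunit ATP5F1B rose from 159 and 167 to 974 and 783 nuclear CPM (log2 ratio of 2.42, SE 0.15, edgeR adjusted p = 1.8e-19). The core subunits of complex III UQCRC1 and UQCRC2, at log2 ratios of 2.15 and 2.04, also rose, and so did COX6A1 at 1.68. The 11 lower genes had log2 ratios down to that of ATP5F1E, a small ATP synthase subunit, at −1.31 (chosen after its values were seen). Mitochondrial import and matrix genes had 10 higher and 3 lower of 23 tested, a share of higher genes near the 35.1% of all genes (4 and 12 with TMM factors, which turned the median of the list from 0.03 to −0.59). The matrix chaperones HSPA9 and HSPD1 rose 6.82-fold and 4.86-fold, and 5.91-fold and 4.55-fold, while the small import subunit TOMM7 fell from 761 and 782 to 316 and 349 CPM. TOMM5 and SLC25A6, the other lower genes of the list, had log2 ratios of −1.18 and −0.63 (named after their values were seen).

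The length of the coding sequence went with the ratio across genes. In the 8144 protein-coding genes tested, cut into 10 classes by coding length, the class with the shortest coding sequences (75 to 495 nucleotides in the canonical transcript of GENCODE release 44) had a median log2 ratio of −0.51 in SplitA and −0.38 in SplitB. The fourth class (912 to 1107 nucleotides) was at 0.71 and 0.62, and the ninth (2472 to 3507) at 0.96 and 0.92. In the shortest class 27 of 824 genes were higher and 264 lower, and in the ninth 48.4% were higher and 0.123% lower. Spearman's rho with coding length was 0.39 in SplitA and 0.40 in SplitB, and 0.37 and 0.39 without the ribosomal protein genes. The length of the 3′ untranslated region, in which reads of this 3′ method start, had a rho of −0.02 and −0.01. With the genes cut into 5 classes by each length, it did go with the ratio within a class of coding length: the median ran from 1.28 at the shortest to 0.67 at the longest untranslated regions in the middle class, and from −0.29 to −0.04 in the class with the shortest coding sequences. Genes are not independent replicates and the canonical transcript need not be the one expressed, so these are descriptions. TMM factors moved the median of the shortest class to −1.07 and that of the ninth to 0.36. They shift every ratio by about the same amount, so the distance between classes could not change. Counted in UMIs, genes with under 500 coding nucleotides other than ribosomal protein genes took 18.5% and 21.2% of the coding UMIs of mid-mitochondrial cells that were not ribosomal, against 34.5% and 34.9% in low-mitochondrial cells.

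**Figure D4:**
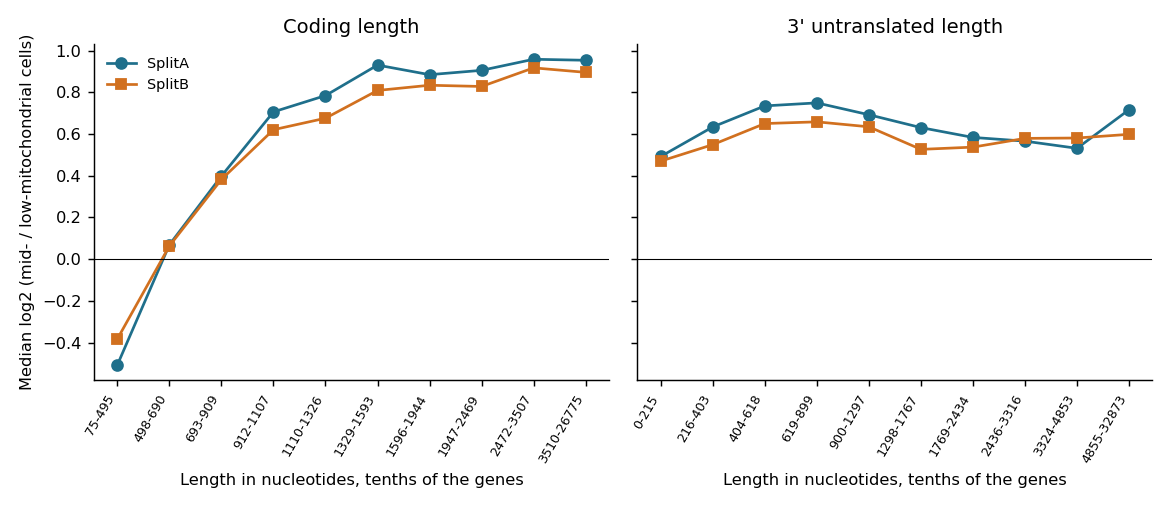
Median log2 ratio of nuclear CPM of mid- to low-mitochondrial cells (y axis) in 10 classes of the 8144 coding genes by coding length (left) and by 3′ untranslated length (right), each flask apart. The line rises from −0.51 and −0.38 to 0.95 and 0.90 with coding length and stays between 0.47 and 0.75 with untranslated length.

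Tubulins, the subunits of microtubules, had a median log2 ratio of 2.31 in SplitA and 1.84 in SplitB. All 9 of 11 tubulin genes that passed the filter on low values were higher, 8 of them with TMM factors. Of all genes 35.1% were higher, and 14.6% with TMM factors. TUBB4B rose from 90.2 and 95.6 to 1065 and 837 nuclear CPM (log2 ratio of 3.34, SE 0.16), TUBB2A from 40.4 and 39.4 to 224 and 295 CPM, TUBA1B from 990 and 1005 to 4929 and 3600 CPM, and TUBB from 1104 and 1099 to 4006 and 3276 CPM. Together the tubulins took 1.68% and 1.33% of the nuclear UMIs of mid-mitochondrial cells and 0.315% of those of low-mitochondrial cells in either flask. Microtubule and axon genes had 8 higher and 0 lower of 20 tested, near the 35.1% higher of all genes (5 and 1 with TMM factors, which turned the median of the list to −0.14). Among them were the motor KIF5B (from 121 and 137 to 494 and 414 CPM) and the neuronal microtubule-associated MAP1B (from 373 and 385 to 1358 and 1222 CPM).

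Cytosolic chaperones had a median log2 ratio of 1.96 in SplitA and 1.85 in SplitB, so the order of these lists differed between the flasks. Of 15 heat shock proteins and HSP90 co-chaperones tested, 12 were higher and 0 lower (11 and 1 with TMM factors), beside 35.1% higher and 5.63% lower of all genes (14.6% and 17% with TMM factors). The 15 include HSPA1A and CHORDC1, which passed the filter on low values only through the mid-mitochondrial cells, and the counts carry that limit. HSP90AB1, the constitutive HSP90, rose from 521 and 533 to 3530 and 2784 nuclear CPM, and the co-chaperones STIP1 and AHSA1 from 44.8 and 43.4 to 252 and 160 CPM and from 71.6 and 61.0 to 297 and 254 CPM. HSPA8, the constitutive HSP70 (named after its values were seen), rose from 354 and 332 to 1134 and 939 CPM. Of the genes best known for heat induction, HSPA1A had 10 and 6 UMIs in all mid-mitochondrial cells of SplitA and SplitB (45.7 and 24.6 CPM, against 4.85 and 5.25 CPM). It passed the filter on low values only through the mid-mitochondrial cells, so no call is read from it. DNAJB1, at 13.7 and 8.20 against 21.7 and 20.1 CPM, was not called by nuclear CPM and was lower with TMM factors. HSPA1A and DNAJB1 were named after their values were seen. The chaperonin subunit CCT5, which folds tubulin and actin, rose from 70.6 and 76.1 to 768 and 541 CPM.

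Genes of the endoplasmic reticulum included the largest rise among genes with an average of at least 50 CPM. HSPA5 (ENSG00000044574, chr9:125234853-125241382), the HSP70 of the endoplasmic reticulum known as BiP, was at 709 and 685 nuclear CPM in mid-mitochondrial cells and at 53.8 and 57.0 in low-mitochondrial cells. These values rest on 155 and 167 UMIs against 277 and 402, and the log2 ratio was 3.65 (SE 0.15, edgeR adjusted p = 1.3e-26). Per cell it was 3.34 and 3.54 times as abundant. The disulfide isomerases PDIA3, PDIA6 and PDIA4 rose from 46.8 and 55.9 to 690 and 533 CPM, from 140 and 148 to 1088 and 869 CPM, and from 52.2 and 54.6 to 352 and 246 CPM. HSP90B1, the HSP90 of this compartment, rose from 103 and 113 to 1015 and 853 CPM. Of 26 genes of this list 16 were higher and 2 lower (11 and 6 with TMM factors), beside 35.1% higher and 5.63% lower of all genes (14.6% and 17% with TMM factors). The 2 were SEC61B and SEC61G, small subunits of the translocation channel, at log2 ratios of −0.87 and −1.02 (named after their values were seen).

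Because these chaperones moved together, the 250 bases before the transcription start of RefSeq (GRCh38.p14) were searched on both strands for 2 motifs. The endoplasmic reticulum stress element is bound by ATF6 together with NF-Y and was written as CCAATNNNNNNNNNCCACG, and the heat shock element is bound by HSF1 and was written as GAANNTTCNNGAA. The first was found before the start of 26 of 35116 promoters (0.074%) and the second before 155 (0.441%), and neither contains the other. Of the 24 genes of the endoplasmic reticulum list with a promoter in the table, 5 had the first motif and 0 the second, namely CALR, CANX, HSP90B1, HSPA5 and PDIA6, all higher. Of the 15 cytosolic chaperones with a promoter, 4 had the second motif and 0 the first, namely CHORDC1, HSP90AA1, HSP90AB1 and HSPA8. HSP90AA1, HSP90AB1 and HSPA8 were higher on either scale. CHORDC1, on 5 UMIs in each flask, passed the filter on low values only through the mid-mitochondrial cells and was not called with TMM factors. No call is read from it. CALR, CANX and CHORDC1 were named after their values were seen. Windows around the match in 5 of these genes are shown in the direction of the gene, with 10 bases on either side in lower case and the match in capitals, in order to show how closely the letters agree between genes. A match on the opposite strand appears as its reverse complement. The window of HSPA5 (chr9:125241381-125241419, minus strand) starts upstream of the gene, with the match 48 to 66 bases before the RefSeq start, and 2 of its bases lie in an annotated exon. That of PDIA6 (chr2:10812843-10812881, minus strand) lies within the annotated gene but in no exon, and that of CALR (chr19:12938374-12938412, plus strand, opposite match) in no gene. Those of HSP90AA1 (chr14:102087110-102087142, minus strand, opposite match) and HSP90AB1 (chr6:44247821-44247853, plus strand, opposite match) also lie within the annotated gene but in no exon, and HSP90AB1 has a further match that is not shown.
HSPA5: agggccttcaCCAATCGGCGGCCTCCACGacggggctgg
PDIA6: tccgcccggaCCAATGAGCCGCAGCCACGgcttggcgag
CALR: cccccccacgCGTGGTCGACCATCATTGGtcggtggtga
HSP90AA1: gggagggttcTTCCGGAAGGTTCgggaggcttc
HSP90AB1: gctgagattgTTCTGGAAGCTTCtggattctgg

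A match describes letters and does not show that a factor was bound. Over all promoters with the first motif, 12 genes were tested, of which 9 were higher and 0 lower, with TMM factors 5 and 1, beside 35.1% higher and 5.63% lower of all genes (14.6% and 17% with TMM factors). The 12 include CALR, CANX, HSP90B1, HSPA5 and PDIA6, whose rise prompted the search, so these counts do not test the motif. The same genes were the 5 higher with TMM factors, and no other gene with this motif was. SERP1, at 183 and 299 nuclear CPM against 264 and 255, was not called by nuclear CPM and was the lower one with TMM factors (log2 ratio of −0.72), and ALG12 was not called, at 9.15 and 12.3 against 11.6 and 8.93 CPM (named after their values were seen). CALR rose from 130 and 129 to 581 and 500 CPM and CANX, the membrane-bound lectin chaperone, from 82.7 and 93.3 to 242 and 193 CPM. Of 29 tested genes with the second motif 16 were higher and 0 lower, with TMM factors 11 and 2, beside 35.1% higher and 5.63% lower of all genes tested (14.6% and 17% with TMM factors). They include the cytosolic chaperones whose rise prompted the search, so these counts do not test the motif either. CHORDC1 and OSBP, both among the 16, passed the filter on low values only through the mid-mitochondrial cells. OSBP (named after its values were seen) was at 9.32 and 8.65 CPM in low-mitochondrial cells and was not called with TMM factors. XBP1, a transcription factor of the stress response of the endoplasmic reticulum (named after its values were seen), was higher by nuclear CPM (68.6 and 73.8 against 35.7 and 34.9) and not called with TMM factors.

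Proteasome and glycolysis genes were called in 1 direction. Of 28 proteasome subunits 24 were higher and 0 lower (17 and 0 with TMM factors), beside 35.1% higher and 5.63% lower of all genes (14.6% and 17% with TMM factors), with median log2 ratios of 1.52 in SplitA and 1.21 in SplitB. ATPases of the regulatory particle were among the largest rises, with PSMC3 (from 63.1 and 61.8 to 462 and 357 nuclear CPM) and PSMC2 (from 27.9 and 25.9 to 192 and 144 CPM). UBB, a polyubiquitin gene, rose from 793 and 786 to 1774 and 1628 CPM. RPS27A, in which ubiquitin is fused to a ribosomal protein, fell from 4760 and 4725 to 1911 and 2460 CPM. Of 17 glycolytic genes 15 were higher and 0 lower (10 and 0), from PGK1 (83.6 and 88.2 to 782 and 668 CPM) and PKM (296 and 308 to 2049 and 1435 CPM) to GAPDH (2359 and 2511 to 5762 and 4580 CPM), which was not called with TMM factors (log2 ratio of 0.46, adjusted p = 0.061).

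Of 20 genes of S phase and replication 18 were higher and 0 lower (15 and 1 with TMM factors), beside 35.1% higher and 5.63% lower of all genes (14.6% and 17% with TMM factors). The replicative helicase subunits MCM7, MCM5, MCM2 and MCM6 rose, MCM7 from 117 and 116 to 928 and 832 nuclear CPM. Of 20 genes of G2 and mitosis 14 were higher and 1 lower (9 and 3), including the nuclear importin KPNA2 (from 66.6 and 71.0 to 690 and 426 CPM) and cyclin B1, CCNB1 (from 29.1 and 27.1 to 256 and 148 CPM). The lower one was CKS2, a small subunit of cyclin-dependent kinases, at 105 and 103 against 210 and 212 CPM (named after its values were seen). Of 18 chromatin and HMG genes 2 were higher and 5 lower (1 and 13), where 5.63% and 17% of all genes were lower. The lower ones included H4C3, HMGA1, HMGN2 and HMGN1, the last named after its values were seen.

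Of 11 nuclear-retained transcripts tested 8 were higher and 0 lower, but with TMM factors 2 and 0, where 14.6% of all genes were higher, namely NKTR and CLK4, the latter on 4 and 5 UMIs and named after its values were seen. NEAT1, the RNA of paraspeckles, was at 622 and 549 nuclear CPM against 267 and 297, KCNQ1OT1 at 229 and 209 against 120 and 106, and NKTR at 197 and 180 against 72.4 and 68.2. The 229 long noncoding RNAs tested had a median log2 ratio of −0.27 in SplitA and −0.08 in SplitB, with 26 higher (11.4%) and 29 lower (12.7%) by nuclear CPM, beside 35.1% and 5.63% of all genes. With TMM factors the median of the fit went from −0.23 to −0.85, and NEAT1, KCNQ1OT1 and MALAT1 were no longer called. GATA2-AS1 and SNHG7, not called by nuclear CPM, were then lower, at −1.19 and −0.92 (both named after their values were seen). The snoRNA host genes ZFAS1, SNHG8 and SNHG32, chosen after their values were seen, had log2 ratios of −1.43, −1.27 and −0.92. Coding genes of splicing factors and hnRNP proteins were higher in 20 of 24 and lower in 0 (10 and 0 with TMM factors), with DDX5, a helicase of splicing, at 1340 and 1074 against 227 and 244 CPM.

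Markers of the cell type stayed present. Of 12 adrenergic neuroblastoma markers none was at 0, 10 were tested, and 3 were higher and 0 lower (2 and 3 with TMM factors, which turned the median of the list to −0.28), beside 35.1% higher and 5.63% lower of all genes (14.6% and 17% with TMM factors). The chromaffin granule protein CHGA rose from 416 and 375 to 1761 and 1706 nuclear CPM, and DBH, which makes noradrenaline, from 358 and 338 to 855 and 886 CPM. PHOX2A, the most abundant of the list and a transcription factor of noradrenergic neurons, was at 1207 and 996 against 744 and 727 CPM and was not called. The list summed to 0.669% and 0.638% of the nuclear UMIs against 0.391% and 0.377%. Such a sum follows its abundant members, here CHGA, DBH and PHOX2A. The median log2 ratio of the list was 0.40 in SplitA and 0.35 in SplitB, under the 0.61 and 0.57 of all genes tested. Mesenchymal markers summed to 0.0430% and 0.0533% against 0.0202% and 0.0247%. Of the 12, 3 had no UMI in these cells and VIM was the most abundant. Only 4 passed the filter on low values, of which 3, SPARC, ANXA2 and VIM, were higher and 1 was not called. VIM was not called with TMM factors, and among cells of 2000 to under 4000 nuclear UMIs none of the 3 was called (adjusted p = 0.19 for SPARC, 0.82 for ANXA2 and 0.68 for VIM). Of 6 blood markers 5 had no UMI, and HBA1 had its UMIs in low-mitochondrial cells of SplitB alone.

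Of 12 granins, prohormones and neuropeptides tested, 9 were higher and 1 lower (7 and 2 with TMM factors), beside 35.1% higher and 5.63% lower of all genes (14.6% and 17% with TMM factors). CPE, the carboxypeptidase that trims prohormones, rose from 46.4 and 44.8 to 325 and 316 nuclear CPM, SCG2 from 40.8 and 44.8 to 169 and 217 CPM, CHGB from 203 and 186 to 517 and 755 CPM and VGF from 224 and 295 to 604 and 804 CPM. The lower one was the neuropeptide galanin, GAL, at a log2 ratio of −0.83 (named after its values were seen). Secreted or membrane proteins among the 15 largest rises included PCOLCE, an enhancer of procollagen processing (from 150 and 139 to 1815 and 1521 CPM), LGALS3BP, IFNGR1 and SLC3A2. Beside HSPA5, PDIA3 and HSP90B1, the 15 also included FH, the fumarase of the citric acid cycle (from 14.7 and 14.9 to 187 and 164 CPM), TUBB4B, ASNS, TUBA1A, CCT5 and PGK1. FH, ASNS, IFNGR1 and SLC3A2 reached the average CPM required for this ranking only through the mid-mitochondrial cells. In low-mitochondrial cells of SplitA and SplitB, ASNS was at 8.93 and 12.6 CPM, IFNGR1 at 10.7 and 9.64, and SLC3A2 at 15.7 and 18.3. The filter thus favoured their place among the largest rises.

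Lists of stress and death are to be read beside the 35.1% higher and 5.63% lower of all genes tested (14.6% and 17% with TMM factors). Of 9 genes of the integrated stress response tested, of 16, 4 were higher and 0 lower on either scale, and these were the amino acid enzymes ASNS, PHGDH and PSAT1 and the transporter subunit SLC3A2. The transcription factor ATF4, at 82.3 and 45.1 against 66.6 and 59.1 nuclear CPM, and DDIT3, at 18.3 and 12.3 against 11.8 and 15.3 CPM, were not called (named after their values were seen). Of 11 immediate early genes 5 were higher and 0 lower (2 and 2 with TMM factors), with JUN at 165 and 115 against 59.8 and 56.2 CPM. Of 14 genes of apoptosis 4 were higher, including MCL1, ENDOG and XIAP, and 1 lower, BAD (0 and 3), and of 12 p53 targets 3 were higher, TNFRSF10B, FDXR and XPC, and 0 lower (1 and 3). XIAP, TNFRSF10B, FDXR and XPC were named after their values were seen. The p53 target CDKN1A (named after its values were seen) was at 9.15 and 16.4 against 27.2 and 32.2 CPM, which was not called by nuclear CPM (log2 ratio of −1.20, adjusted p = 0.066) and was lower with TMM factors. The medians of the immediate early, integrated stress response, p53 and apoptosis lists were above 0 by nuclear CPM and below 0 with TMM factors.

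**Figure D5:**
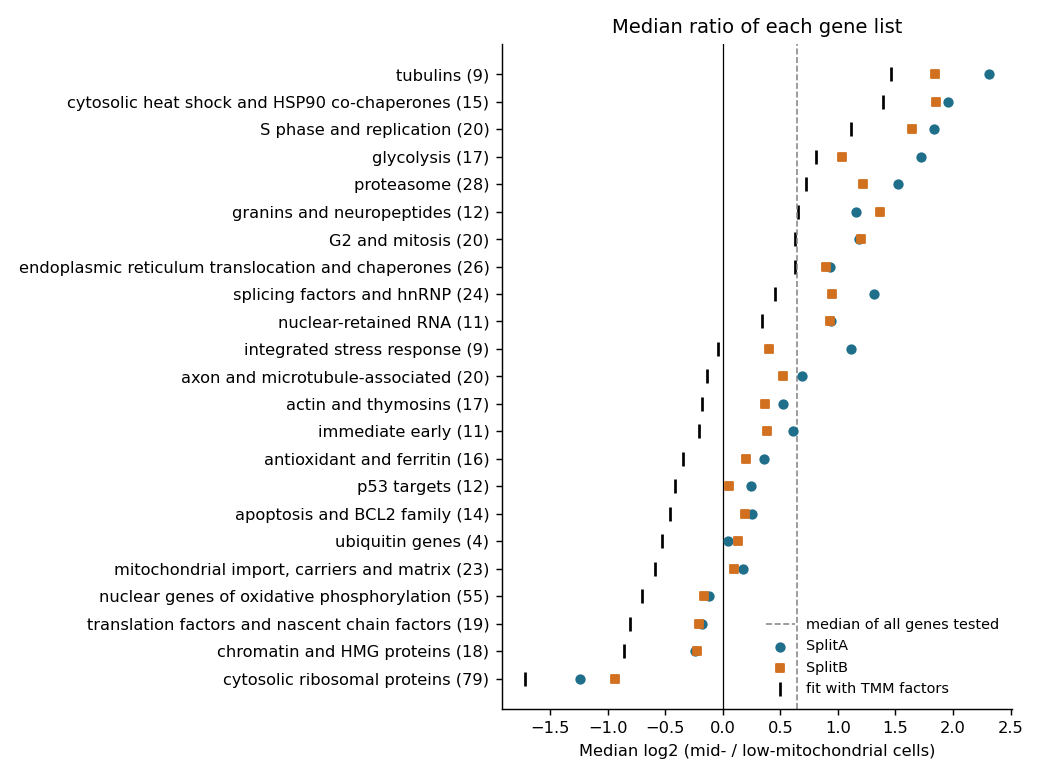
Median log2 ratio of nuclear CPM of mid- to low-mitochondrial cells (x axis) of each of 23 gene lists (number of genes tested in brackets), with a circle for SplitA, a square for SplitB, a bar for the fit with TMM factors and a dashed line at the median of all genes tested, 0.64. Tubulins and chaperones stand at the top and ribosomal proteins alone below −0.90 in both flasks.

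Among the mid-mitochondrial cells themselves, the ribosomal share fell as the mitochondrial share rose, with a Spearman's rho of −0.29 over the 139 cells of SplitA and −0.54 over the 128 of SplitB, and it fell as the TUBA1A share rose, with −0.29 and −0.53. With the mitochondrial share itself, the TUBA1A share had a rho of 0.14 in SplitA and 0.34 in SplitB, and the MALAT1 share 0.05 and 0.31. The cells share a library and their depth falls with the mitochondrial share, with a rho of −0.40 and −0.50. Of the TUBA1A shares of single cells, 136 of 139 and 123 of 128 lay above the median of the low-mitochondrial cells, while for MALAT1 113 of 139 and 105 of 128 did. The shares of TUBA1A ran from 0% over a median of 0.510% to 2.17% in SplitA and from 0% over 0.421% to 1.54% in SplitB. Of mid-mitochondrial cells 86 in SplitA and 68 in SplitB had fewer than 1000 genes. With the 53 and 60 others alone, 1982 genes were higher and 291 lower.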

How the data were processed

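The authors sequenced an mRNA and a hashtag library, mapped reads to GRCh38 and counted UMIs (STAR 2.7 and Cell Ranger 4.0.0 per the labels) and deposited raw UMI counts of 33538 genes and 2 hashtags in 2879 cells, without normalization. The annotation release is not given in the sources used here. The labels call both hashtags the same split, so the flask names follow the study. Symbols were found for 33113 identifiers. Cells and gene lists were chosen with earlier results of these data known. Doublets within a flask were not removed. Sums per flask and group were tested with edgeR 4.0.16 (glmQLFit, flask as a block, nuclear UMI totals as library sizes, Benjamini-Hochberg adjustment) in R 4.3.3 for genes with an average of at least 10 nuclear CPM; DESeq2 1.42.0 was an alternative. Mitochondrial genes were not tested. The block rests on both groups of cells coming from the same flask.

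On simulated data of this comparison (7396 genes tested, 200 changed), 0 of 7231 unchanged genes were called, with 77.6% of 3-fold and 37.8% of 2-fold higher and 44.7% of 3-fold and 18.2% of 2-fold lower genes recovered. The simulated counts were drawn from the proportions of low-mitochondrial cells, with the same dispersion for all genes. They hold no shift in composition like that of the real cells, so calls that such a shift brings were not measured. Genes named in the text are the 3 markers, the 15 largest called rises and falls and up to 5 per list with an average of at least 50 CPM, the 10 most abundant, and the 5 nearest to TUBA1A. Gene positions and lengths are those of GENCODE release 44, promoters those of RefSeq. Other values came from Python 3.11.15, scipy 1.17.1 and pandas 2.3.3. Some genes that the rule selects are not reported here.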

Additional observations from a re-analysis of the deposited data

Results flagged for a closer look

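The 11 multiplets with 15% to under 30% mitochondrial RNA, which no comparison used, also had a high TUBA1A level, at 2916 nuclear CPM (80 UMIs, exact Poisson 95% interval of 2313 to 3630), against 477 in the 62 multiplets under 15% with at least 1000 genes. Their ribosomal share was 28.3% against 43.2%. Cells under 15% with fewer than 1000 genes were above the low-mitochondrial cells too, with 1239 CPM of TUBA1A in the 18 cells of SplitA (885 to 1688) and 2320 CPM in the 39 cells of SplitB (1899 to 2806). Their ribosomal shares were 42.3% and 35.1%, against 41.1% in the low-mitochondrial cells of either flask, and what set their level was not tested. With 2 flasks, no test for a deviating replicate was possible.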

How the results depend on the processing

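TUBA1A and HSP90AA1 kept their direction in each of 17 alternatives and their call in the 15 that gave a test, a single flask giving none, with log2 ratios of 2.55 to 3.42 and 2.10 to 2.95. Both were markers known from these data and the alternatives reuse the same library, so this describes dependence on the settings only. MALAT1 lost its call with TMM factors (0.61), with totals without ribosomal protein genes (0.78, adjusted p = 0.055) and with members of 15% to under 20% alone (0.67, adjusted p = 0.090), over a range of 0.61 to 1.49. The genes higher and lower numbered 1223 and 1426 with TMM factors, 1490 and 1032 with totals without ribosomal protein genes, 508 and 684 with DESeq2 (3092 genes without an adjusted p), and 462 and 57 for the 46 members of 15% to under 20%. They numbered 625 and 143 against low-mitochondrial cells of the members' depth, of which SplitA had only 4, and 450 and 140 at 2000 to under 4000 nuclear UMIs, an alternative chosen after seeing the data. Genes higher were 1379 at an average of at least 50 CPM, and genes lower were 253 at 2-fold and 291 for members with at least 1000 genes. By size alone, 4291 and 4138 genes were higher and 1164 and 954 lower in the flasks without replicate 2 and without replicate 1. Without the flask as a block (no replicate block), 3044 and 486 genes were called. The other counts were within 1.5 times, but with 9 mitochondrial genes (2941 and 653) the cells changed to 83 and 199, and 2014 of the 2949 higher and 372 of the 473 lower calls were shared, with 1 called in the opposite direction. Of 25 list medians, 13 kept their sign in all 13 alternatives each, and 12 changed it in 22 of 325 values. Most of these changes came with TMM factors or totals without ribosomal protein genes, which lower all ratios by about the same amount. The lists that changed sign there had main medians above 0 but under the 0.64 of all genes tested. They thus rose less than the median gene, and their direction depends on the scale. The other sign changes were in the ubiquitin genes, the nuclear genes of oxidative phosphorylation and the chromatin genes. With 1 residual degree of freedom and 267 members, genes of few UMIs are limited by counting.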
